A study of Mus musculus with 36 samples.

Results

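Testes of juvenile mice that lack functional Brdt, labelled KO-/-, were compared with those of wild-type mice of the same line, labelled +/+, at 20 days post partum (dpp). All animals carried the strain label C57BL/6. The comparison rests on 12 of the 36 arrays of the series, which came from 7 of its 24 animals: 4 knockout animals on 6 arrays and 3 wild-type animals on 6 arrays. Both groups were chosen by their label alone, and arrays of the same mouse number were averaged, so that n counts animals. Knockout animals 139 and 140 were siblings of litter 2 and had 1 array each. Knockout animals 148 and 152 and wild-type animals 146, 149 and 157 were siblings of litter 1 and had 2 arrays each. Litter 2 therefore had no wild-type animal, and litter and genotype cannot be told apart for animals 139 and 140. The labels do not describe how the allele was made. Other comparisons are used below for reference: knockout (4 animals) against heterozygous KO+/- mice (6 animals) of the same line at 17 dpp, and mice homozygous for a deletion of the first bromodomain of Brdt (BD1-/-, 3 animals) against their own controls (4 animals, BD1+/+ or BD1+/-) at 20 dpp.

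BRDT is the testis-specific member of the BET family, proteins whose bromodomains bind acetylated lysines of histones. In the mouse it is made in meiotic and post-meiotic male germ cells, where it is known for roles in transcription and in the compaction of acetylated chromatin. In juvenile males the germ cells of the first wave of spermatogenesis advance together, so that spermatocytes of late meiotic prophase and the earliest round spermatids appear around the ages studied here. Genes of the acrosome (the secretory cap of the sperm head), the flagellum and the condensed sperm nucleus are switched on in this period.

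Expression was read on Illumina bead arrays of 45281 probes, and every value below is a normalized log2 signal of a gene's probe or a difference of such signals. Within the 12 arrays the raw median signal lay between 118.3 and 149.3 intensity units and 17400 to 19460 probes were detected per array (detection p below 0.01), and precision is limited by how few arrays there are. Pearson correlations across probes were 0.984 to 0.992 between arrays of 1 animal, 0.969 to 0.990 between animals of 1 group, and 0.872 to 0.954 between knockout and wild-type arrays. The tissue label fits the markers: the Sertoli cell gene Cldn11 was at 13.76 to 14.54 and the germ cell gene Ldhc at 14.45 to 15.33 in all 7 animals. The labels number the mice separately. The p-values use 1 estimate of spread shared by all 24 animals of the series, most of them outside this comparison. The groups compared hold only these 7 animals in 2 litters. Values of single animals are given throughout in the order 139, 140, 148 and 152 for the knockout and 146, 149 and 157 for the wild type.

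Many genes differed between knockout and wild-type testes at 20 dpp, and the large changes were decreases. In limma, 6927 of 11529 tested genes (60.1%) passed a Benjamini-Hochberg adjusted p of 0.05. The knockout was higher for 4542 of them (39.4% of all genes) and lower for 2385 (20.7%). At least 2-fold changes were called for 1255 lower genes (10.9%) and 129 higher genes (1.12%). The higher count rests on the scaling and on single animals: it was 8 without background correction, 8 with the authors' matrix, 13 relative to the median of all genes and 82 to 265 with 1 animal left out. The lower count was 766 without background correction. At least 4-fold changes were called for 495 lower genes (4.29%) and 0 higher genes (0%), and 95 genes (0.824%) were at least 16-fold lower. Further, 269 genes (2.33%) were detected on all 6 wild-type arrays and on no knockout array, against 13 genes (0.113%) with the opposite pattern. No overlap between animals was found for 2586 genes (22.4%) with every knockout below every wild type, and for 4807 genes (41.7%) with every knockout above. The median change of all genes was 0.24 on the log2 scale, 0.14 without background correction and 0.28 with median scaling. Small increases near that value are therefore not told apart from a shift of scale. Relative to this median 1715 genes (14.9%) were higher and 3304 (28.7%) lower, and the lower share of the calls went from 34.4% to 65.8%. With the knockout animals of litter 1 alone, 2733 genes (23.7%) were higher and 1673 (14.5%) lower. In bulk testis RNA, fewer cells of a type and less RNA per cell cannot be told apart.

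The Brdt transcript itself (chromosome 5) fell in every knockout animal. Its probe with the highest mean read 7.23, 7.52, 8.28 and 8.23 in knockout and 11.50, 11.61 and 11.44 in wild-type animals. The groups were far apart, with the litter 2 knockouts the lowest. The log2 fold change was -3.70 ± 0.30 (SE, n = 4 and 3), a 13.0-fold decrease (limma, adjusted p = 1.9e-09). A second probe read 7.59, 8.17, 8.56 and 8.42 against 10.45, 10.55 and 10.44, and another was detected on 0 of these arrays. Both usable probes remained detected on all 6 knockout arrays. Their position relative to the altered part of the gene is not stated in the sources, so they are no full check of the genotype labels.

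The somatic BET genes moved little. Brd2, a BET gene expressed in many tissues, read 11.73, 11.76, 11.94 and 11.79 against 12.21, 12.14 and 12.13, and fell by 0.36 ± 0.12 (limma, adjusted p = 0.0111). Brd3, another widely expressed BET gene, was at 11.31 to 11.81 in the 7 animals and rose by 0.29 ± 0.11 (limma, adjusted p = 0.0244), close to the median shift of all genes. This call of Brd3 was lost without animal 139, 140, 149 or 157 (limma, adjusted p of 0.069, 0.062, 0.0637 and 0.104). With the litter 1 knockouts only, neither gene was called (limma, adjusted p of 0.0989 for Brd2 and 0.232 for Brd3).

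**Figure D1:**
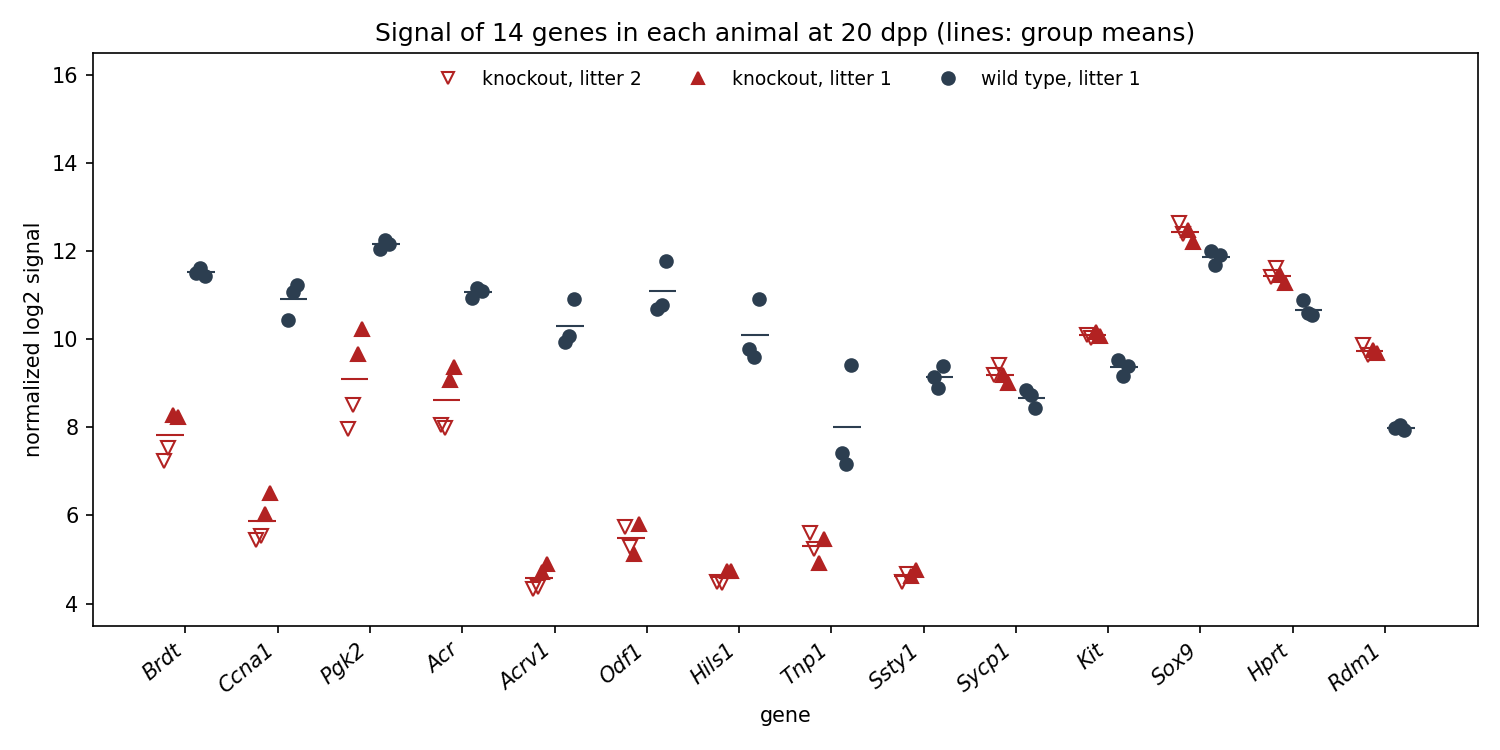
Normalized log2 signal (vertical axis) of 14 genes at 20 dpp, with 1 symbol per animal: open triangles for knockouts of litter 2, filled triangles for knockouts of litter 1, circles for wild types, and a line for each group's mean. The first 9 genes, Brdt to Ssty1, are lower in all 4 knockouts than in all 3 wild types, the last 5, Sycp1 to Rdm1, are higher, and wild-type animal 157 stands above its littermates for Tnp1 at 9.42.

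Genes of synapsis and meiotic recombination, which act early in meiotic prophase, were mostly kept. Of 22 measured members 8 rose (36.4%), 3 fell (13.6%) and 11 did not pass the test. The share that rose was close to the 39.4% of all genes, and 20.7% of all genes fell. The median change was 0.33, against 0.24 over all genes. Relative to the median of all genes 2 were higher and 5 lower, and without wild-type animal 157 the number that rose was 4. Meiob, a DNA-binding factor of meiotic recombination, read 11.48, 11.64, 11.28 and 11.25 in knockout and 10.67, 10.70 and 10.49 in wild-type animals. It rose by 0.79 ± 0.14 (limma, adjusted p = 7.27e-05). The X-linked recombination gene Tex11 was also higher in every knockout, at 10.83, 10.49, 9.93 and 10.05 against 9.37, 9.28 and 9.12, a rise of 1.07 ± 0.20 (limma, adjusted p = 0.000213).

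Components of the synaptonemal complex and of meiotic cohesin went in different directions. Syce3, of the central element, rose by 0.37 ± 0.10 (limma, adjusted p = 0.00316). Sycp1, of the transverse filament, read 9.18, 9.41, 9.18 and 9.00 against 8.84, 8.74 and 8.45 and rose by 0.52 ± 0.20 (limma, adjusted p = 0.0328). Neither Syce3 nor Sycp1 was called relative to the median of all genes (limma, adjusted p of 0.28 for Sycp1), and Sycp1 was not called without 139, 140, 149 or 157 (limma, adjusted p of 0.0533, 0.0885, 0.0572 and 0.149). Stag3, the cohesin subunit of meiosis, read 12.50, 12.39, 12.62 and 12.52 against 12.83, 13.00 and 12.89, a narrow but complete separation of the groups. It fell by 0.40 ± 0.08 (limma, adjusted p = 0.000199). Spo11, which makes the meiotic double-strand breaks, fell by 0.40 ± 0.17 (limma, adjusted p = 0.0417), a call that was lost without animal 139, 140, 149 or 157 (limma, adjusted p of 0.104, 0.0702, 0.179 and 0.073).

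Genes of pachytene and diplotene spermatocytes were lower as a group. Of 25 measured members 14 fell (56%, against 20.7% of all genes), 0 rose and 11 did not pass, with a median change of -0.98. The mean log2 signal over the list rose in the order 139, 140, 148 and 152, at 9.63, 9.88, 10.2 and 10.4, below the wild-type range of 11.1 to 11.3. With the litter 1 knockouts only, 8 of the 25 were called lower, against 14.5% of all genes. Adam3, a sperm surface protein gene, read 8.73, 9.94, 10.28 and 11.09 against 12.81, 13.08 and 12.95 and fell by 2.94 ± 0.67 (limma, adjusted p = 0.001). Pou5f2, a POU domain transcription factor gene of male germ cells, read 7.94, 8.40, 9.03 and 9.66 against 11.30, 11.79 and 11.65 and fell by 2.83 ± 0.41 (limma, adjusted p = 1.13e-05). In both genes the litter 2 knockouts were the lowest and no knockout reached a wild type. Ybx2, which encodes an RNA-binding protein of germ cell messenger particles, fell by 0.98 ± 0.37 (limma, adjusted p = 0.0255). Its call was lost without 139, 146, 149 or 157 (limma, adjusted p of 0.0959, 0.0509, 0.0622 and 0.0614) and with the litter 1 knockouts only (limma, adjusted p = 0.242).

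Some transcripts that mark the same stage had small differences that passed the test in some fits only. Hspa2, the testis heat shock chaperone, read 14.68, 14.82, 15.09 and 15.04 against 15.17, 15.21 and 15.11, a difference of -0.26 ± 0.20 (limma, adjusted p = 0.258). Piwil1, a PIWI protein gene of pachytene piRNA production, had a difference of -0.48 ± 0.42 (limma, adjusted p = 0.32). The germ cell lactate dehydrogenase gene Ldhc had one of -0.42 ± 0.41 (limma, adjusted p = 0.384). In a fit of both groups alone all 3 were called lower (limma, adjusted p of 0.0451 for Hspa2, 0.0327 for Piwil1 and 0.0279 for Ldhc), as with array brightness as a block (limma, adjusted p of 0.0141, 0.00348 and 0.00436). Relative to the median of all genes Hspa2 was called lower (limma, adjusted p = 0.0421). These are among the brightest probes here, and all 3 were detected on every array.

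Of the genes that act in the meiotic division, the cyclin Ccna1 changed the most. Ccna1, the A-type cyclin that mouse spermatocytes need to enter division, read 5.45, 5.54, 6.03 and 6.51 in knockout and 10.43, 11.08 and 11.23 in wild-type animals. The gap between the groups was several times the spread within either, and the log2 fold change was -5.03 ± 0.32 (limma, adjusted p = 6.09e-11). Over the list 12 of 20 measured members fell (60%, against 20.7% of all genes), 2 rose and 6 did not pass. The median was -0.52, and 9 were called lower with the litter 1 knockouts only. Plk1, a mitotic and meiotic kinase gene, read 8.88, 9.08, 9.20 and 9.19 against 11.09, 11.21 and 11.18 and fell by 2.07 ± 0.68 (limma, adjusted p = 0.0129). The Plk1 call was lost with the litter 1 knockouts only (limma, adjusted p = 0.0716), although no knockout came near a wild type.

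Aurora kinases, which act on spindles and chromosomes, fell less. Aurkc, the germ cell member, read 7.85, 7.97, 8.49 and 8.57 against 9.75, 10.13 and 10.06 and fell by 1.76 ± 0.28 (limma, adjusted p = 3.19e-05). Aurka, of the spindle poles, fell by 1.28 ± 0.20 (limma, adjusted p = 3.32e-05). Cdk1, the catalytic partner of division cyclins, overlapped between the groups, at 10.30 to 10.73 against 10.10 to 10.43, a difference of 0.20 ± 0.12 (limma, adjusted p = 0.171). The phosphatase gene Cdc25c also overlapped, with a difference of -0.49 ± 0.22 (limma, adjusted p = 0.0548). Cdc25c was called lower with litter as a block (-0.74, limma, adjusted p = 0.0101), with the mean over its probes (limma, adjusted p = 0.0102), relative to the median of all genes (limma, adjusted p = 0.00906) and without animal 139 (limma, adjusted p = 0.00788), among other settings. The X-linked cyclin gene Ccnb3, of early meiotic prophase, went the other way and rose by 1.10 ± 0.19 (limma, adjusted p = 8.13e-05).

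Regulators of the spermatid programme were lower in most cases. Of 23 measured transcription regulators 15 fell (65.2%, against 20.7% of all genes), 3 rose and 5 did not pass. The median was -0.88, and 8 were called lower with the litter 1 knockouts only. Crem, whose activator form turns on many spermatid genes, read 9.61, 9.95, 10.30 and 10.48 against 11.14, 11.36 and 11.26 and fell by 1.17 ± 0.36 (limma, adjusted p = 0.00813). Fhl5, which encodes the CREM coactivator known as ACT, read 4.49, 4.60, 4.91 and 4.37 against 7.74, 7.66 and 9.28. Fhl5 was detected on no knockout array and was at least 6.65-fold lower (limma, adjusted p = 4.69e-06). Such a lower limit sets the wild-type mean against the lowest signal that counts as detected, since the knockout level has only an upper bound. Rfx2, a regulator of cilium and flagellum genes in the mouse testis, read 11.69, 11.82, 12.36 and 12.39 against 13.08, 13.23 and 13.22. It fell by 1.11 ± 0.30 (limma, adjusted p = 0.00396). The Crem and Rfx2 calls were lost with the litter 1 knockouts only (limma, adjusted p of 0.111 and 0.0804), where their changes were -0.86 and -0.80.

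Other members of this list had larger changes or opposite ones. Papolb, a poly(A) polymerase gene of spermatids, read 8.36, 8.86, 9.57 and 10.04 against 11.97, 12.14 and 12.06 and fell by 2.85 ± 0.52 (limma, adjusted p = 0.000143). Creb3l4, a bZIP factor gene of spermatids, fell by 1.88 ± 0.31 (limma, adjusted p = 5.44e-05). Sox5 fell by 2.21 ± 0.29 (limma, adjusted p = 2.39e-06), but other probes of Sox5 were called in the opposite direction. Spz1, a basic helix-loop-helix factor gene, was detected on no knockout array and was at least 3.46-fold lower (limma, adjusted p = 7.06e-06). The X-linked Taf7l, a testis form of a general transcription factor subunit, rose by 0.98 ± 0.18 (limma, adjusted p = 0.000154). Tbpl1, a TBP-like factor gene, overlapped between the groups with a difference of 0.13 ± 0.21 (limma, adjusted p = 0.616).

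Promoter windows are shown because transcripts of Crem, whose protein binds cAMP response elements, and of Rfx2, whose protein binds X-box elements, were among those that fell. The 250 bases before each annotated start of a gene were taken from RefSeq (GRCm38.p6). Both strands were searched for the full cAMP response element TGACGTCA and for GTTGCCA, which is only a part of the X-box motif. A gene with several starts was counted if any of its windows held the motif. The windows below are printed 5′ to 3′ along the gene's strand, with the match in capitals. They belong to Znrf4 (chr17:56512484-56512733, minus strand), Izumo1 (chr7:45621561-45621810, plus strand), Tekt1 (chr11:72361883-72362132, minus strand) and Tmem247 (chr17:86917098-86917347, plus strand, where the match lies on the opposite strand).
Znrf4: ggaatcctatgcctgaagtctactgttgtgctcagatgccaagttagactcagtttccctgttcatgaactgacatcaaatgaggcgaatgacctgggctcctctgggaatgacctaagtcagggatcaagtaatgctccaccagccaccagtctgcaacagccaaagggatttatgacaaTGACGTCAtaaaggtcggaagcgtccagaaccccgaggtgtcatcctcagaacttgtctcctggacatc
Izumo1: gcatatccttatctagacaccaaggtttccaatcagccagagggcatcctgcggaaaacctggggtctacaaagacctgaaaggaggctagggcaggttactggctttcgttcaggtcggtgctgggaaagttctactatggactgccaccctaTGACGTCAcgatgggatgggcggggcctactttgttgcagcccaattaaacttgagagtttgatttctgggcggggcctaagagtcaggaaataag
Tekt1: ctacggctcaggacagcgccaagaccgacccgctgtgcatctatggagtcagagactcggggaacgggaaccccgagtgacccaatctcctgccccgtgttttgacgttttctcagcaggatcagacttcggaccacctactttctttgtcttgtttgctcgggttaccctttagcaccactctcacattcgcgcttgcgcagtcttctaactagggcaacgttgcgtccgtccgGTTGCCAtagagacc
Tmem247: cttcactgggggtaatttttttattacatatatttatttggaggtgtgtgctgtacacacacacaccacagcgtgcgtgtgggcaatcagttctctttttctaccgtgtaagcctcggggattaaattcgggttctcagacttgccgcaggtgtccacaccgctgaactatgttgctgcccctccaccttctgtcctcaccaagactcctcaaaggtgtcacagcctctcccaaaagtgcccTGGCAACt
The response element lay 62 bases before the start of Znrf4 and 89 before that of Izumo1, and the X-box part 9 bases before that of Tekt1 and 2 before that of Tmem247. The full response element was found for 26 of 996 matched genes that were at least 2-fold lower (2.61%) and for 276 of 9361 matched genes of all tested (2.95%). The X-box part was found for 82 of the same 996 (8.23%) and for 392 of the 9361 (4.19%). Among genes at least 4-fold lower the shares were 1.52% and 10.4% of 396, and among genes at least 2-fold higher 0 and 5.71% of 105. Over all 32851 windows, counted per window and not per gene, they were 1.55% and 3.66%. A match is a description of the letters and not a bound site.

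Znrf4 and Tmem247 are examples of the strongest decreases. Znrf4, a ubiquitin ligase gene of spermatids, read 4.71, 4.60, 4.54 and 4.85 against 10.30, 10.34 and 11.36 and was at least 36.1-fold lower (limma, adjusted p = 1.39e-11). Tmem247 was at 4.47 to 4.69 in knockout and 9.96 to 11.25 in wild-type animals and was at least 31.0-fold lower (limma, adjusted p = 1.98e-10). Neither was detected on any knockout array.

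Acrosome and egg-binding genes were the most affected functional list by median. Of 37 measured members 30 fell (81.1%, against 20.7% of all genes), 2 rose (1 without animal 140) and 5 did not pass. The median change was -2.45, or -2.16 with genes at their lower limit where no array of the lower group detected them, against 0.24 over all genes. With the litter 1 knockouts only, 27 were still called lower, and 17 of the 37 were detected on all 6 wild-type arrays and no knockout array. Those 17 passed the detection filter only through groups other than this knockout, so their fall is partly set by that filter. List means were 6.23, 6.36, 6.47 and 6.50 in knockout and 8.71 to 9.40 in wild-type animals, with little spread among the knockouts.

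Genes of the acrosomal matrix and membrane fell to the detection limit in part. Acrv1, an acrosomal matrix protein gene of round spermatids, read 4.32, 4.37, 4.72 and 4.90 against 9.93, 10.07 and 10.91 and was at least 28.1-fold lower (limma, adjusted p = 6.09e-11). Spaca3, a lysozyme-like acrosomal protein gene, read 4.46, 4.46, 4.49 and 4.53 against 9.88, 9.98 and 10.87 and was at least 26.9-fold lower (limma, adjusted p = 6.65e-12). Spam1, the sperm hyaluronidase gene, was at least 11.8-fold lower (limma, adjusted p = 3.33e-10). None of these was detected on a knockout array, and in all of them wild-type animal 157 was the highest. Izumo2 was at least 21.6-fold lower (limma, adjusted p = 1.63e-10) and Spaca7 at least 18.4-fold lower (limma, adjusted p = 4.43e-11).

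Izumo1, the sperm protein that binds the egg receptor Juno, read 4.83, 4.83, 5.40 and 5.47 against 7.89, 7.88 and 8.91. It was still detected on 2 of 6 knockout arrays and fell by 3.10 ± 0.37 (limma, adjusted p = 8.69e-07). Other acrosomal genes kept a clear signal. The proacrosin gene Acr read 8.05, 7.98, 9.07 and 9.37 against 10.93, 11.17 and 11.10 and fell by 2.45 ± 0.46 (limma, adjusted p = 0.00017). Acrbp, the proacrosin-binding protein gene, fell by 2.36 ± 0.40 (limma, adjusted p = 7.68e-05), and Zpbp, a zona-binding protein gene, by 1.93 ± 0.36 (limma, adjusted p = 0.000182). Spaca1, of the inner acrosomal membrane, read 7.51, 7.81, 7.39 and 7.39 against 9.52, 9.39 and 10.14 and fell by 2.16 ± 0.28 (limma, adjusted p = 2.2e-06). The knockouts of litter 1 were above those of litter 2 for Acr and not for Spaca1.

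Flagellar genes fell almost as widely. Of 48 measured members 42 fell (87.5%, against 20.7% of all genes) and 5 did not pass. Another 1 rose, or 0 without animal 149 and 2 without 146. The median was -1.74, or -1.71 with genes at their lower limit. With the litter 1 knockouts only, 33 were called lower. Of the 48 members, 9 were detected on every wild-type array and no knockout array, so their fall is partly set by the detection filter. Odf1, of the outer dense fibres, read 5.73, 5.27, 5.13 and 5.81 against 10.70, 10.78 and 11.79 and fell by 5.60 ± 0.37 (limma, adjusted p = 9.43e-11). Odf3, which was detected on no knockout array, was at 4.44 to 4.81 in knockout and 9.12 to 10.52 in wild-type animals and was at least 18.2-fold lower (limma, adjusted p = 1.36e-09). Smcp, a gene for a cysteine-rich protein of the mitochondrial capsule of the midpiece, read 4.54, 4.80, 4.60 and 5.15 against 9.52, 9.33 and 10.50 and was at least 19.6-fold lower (limma, adjusted p = 2.71e-10). For each of these genes the lowest wild type was more than 3 log2 units above the highest knockout.

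Fibrous sheath and ion channel genes showed the same separation. Akap3, of the fibrous sheath, read 6.09, 6.67, 7.30 and 6.84 against 9.20, 9.52 and 10.35 and fell by 2.97 ± 0.36 (limma, adjusted p = 1.06e-06). The X-linked sheath gene Akap4 read 4.67, 4.76, 4.80 and 4.66 against 7.67, 7.58 and 8.87 and was at least 5.84-fold lower (limma, adjusted p = 6.12e-07). Catsper3 and Catsper4 encode pore subunits of the sperm calcium channel. Catsper3 was at least 9.2-fold lower (limma, adjusted p = 6.5e-09) and Catsper4 at least 7.49-fold lower (limma, adjusted p = 3.61e-09). The axonemal genes Spag16 and Tekt1 fell by less. Spag16, of the central apparatus, read 8.02, 8.46, 9.00 and 9.25 in knockout animals and 10.62 or more in every wild type. It fell by 2.15 ± 0.48 (limma, adjusted p = 0.000881). Tekt1, which encodes a microtubule protein of the axoneme, read 11.03, 11.33, 11.99 and 12.08 against 12.79, 13.15 and 13.14 and fell by 1.42 ± 0.44 (limma, adjusted p = 0.00934), a call lost with the litter 1 knockouts only (limma, adjusted p = 0.135).

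Among genes that replace histones or remodel chromatin in spermatids, 11 of 22 measured members fell (50%), 5 rose (22.7%) and 6 did not pass. Over all genes 20.7% fell and 39.4% rose. The median of the list was -0.77 (-0.57 with genes at their lower limit). Of the 22, 4 were detected on every wild-type array and no knockout array, so their fall is partly set by the detection filter. Measured relative to the median of all genes 13 were lower and 0 higher, and with the litter 1 knockouts only 11 were lower and 4 higher. The number that rose was 3 without knockout animal 152 or wild-type animal 149. Hils1, a spermatid linker histone gene, read 4.50, 4.46, 4.73 and 4.74 against 9.77, 9.60 and 10.91, was detected on no knockout array, and was at least 24.3-fold lower (limma, adjusted p = 2.26e-10). Prm3, a protamine-like gene next to the protamines, was at least 3.37-fold lower (limma, adjusted p = 3.46e-07), and the spermatid histone gene H2bl1 at least 3.57-fold lower (limma, adjusted p = 4.02e-05).

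The protamine and transition protein genes varied most among the wild types. Prm1, the first protamine gene, read 4.53, 4.46, 4.69 and 4.62 against 6.66, 6.83 and 10.32, and Tnp1, a transition protein gene, read 5.61, 5.23, 4.91 and 5.46 against 7.42, 7.16 and 9.42. Wild-type animal 157 stood far above its littermates in each, while no knockout reached any wild type. Prm1 was at least 5.44-fold lower (limma, adjusted p = 0.00773), and without animal 157 its fitted change was -2.17 and its call was lost (limma, adjusted p = 0.0899). Tnp1 fell by 2.70 ± 0.63 (limma, adjusted p = 0.00113), and without animal 157 by 1.99 (limma, adjusted p = 0.0171). H1f7, another spermatid linker histone gene, was detected on 3 of 6 wild-type arrays, and its call (limma, adjusted p = 0.00847) was lost without animal 157 (limma, adjusted p = 0.12).

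Chromatin regulators in this list fell moderately. Chd5, a chromatin remodeller gene of spermatids, read 6.23, 5.82, 5.97 and 5.90 against 6.76, 6.88 and 7.44 and fell by 1.05 ± 0.18 (limma, adjusted p = 9.03e-05). Dot1l, the histone H3 lysine 79 methyltransferase gene, fell by 1.06 ± 0.18 (limma, adjusted p = 7.03e-05). The germ cell histone gene H2bc1 overlapped between the groups and rose by 0.58 ± 0.21 (limma, adjusted p = 0.02), a call lost without 139, 149 or 152 (limma, adjusted p of 0.0638, 0.0763 and 0.0512).

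Isozymes that supply sperm with energy fell. Of 18 measured members 14 fell (77.8%, against 20.7% of all genes), 0 rose and 4 did not pass. The median was -1.59, and 10 were called lower with the litter 1 knockouts only. Pgk2, the autosomal phosphoglycerate kinase that serves germ cells while the X chromosome is silent, read 7.96, 8.50, 9.66 and 10.24 against 12.05, 12.25 and 12.15. The knockouts spread over more than 2 log2 units, in the order of the litters, and Pgk2 fell by 3.06 ± 0.63 (limma, adjusted p = 0.000408). Gapdhs, the sperm glyceraldehyde phosphate dehydrogenase gene, read 4.78, 4.74, 4.67 and 4.80 against 8.27, 8.21 and 9.40 and was at least 8.79-fold lower (limma, adjusted p = 2.06e-08). Acsbg2, an acyl-CoA synthetase gene, was at least 7.6-fold lower (limma, adjusted p = 9.36e-09). Pfkp, a phosphofructokinase gene, fell by 3.21 ± 0.34 (limma, adjusted p = 1.01e-07), and Hk1, a hexokinase gene, fell by 1.72 ± 0.21 (limma, adjusted p = 8.73e-07). Gk2, a testis glycerol kinase gene, fell by 1.46 ± 0.46 (limma, adjusted p = 0.0094), and this call was lost with the litter 1 knockouts only (limma, adjusted p = 0.075).

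Testis kinases, phosphatases and signalling genes followed, with 14 of 22 lower (63.6%, against 20.7% of all genes). A further 4 were higher and 4 did not pass, with a median of -0.94. Tssk2, a testis-specific serine kinase gene, read 5.12, 4.80, 4.85 and 5.71 against 8.18, 8.30 and 9.14 and fell by 3.42 ± 0.35 (limma, adjusted p = 7.55e-08). Its relative Tssk4 was at least 5.33-fold lower (limma, adjusted p = 7.84e-08), while Tssk6 overlapped between the groups with a difference of -0.41 ± 0.31 (limma, adjusted p = 0.259). Dusp13, a dual-specificity phosphatase gene, was at least 8.89-fold lower (limma, adjusted p = 2.25e-09) and Ccdc33 at least 2.95-fold lower (limma, adjusted p = 5.85e-07). Ppp3r2, the testis calcineurin subunit gene, read 8.89, 9.92 and 10.38 in animals 139, 140 and 148, its highest knockout level in animal 152, and 12.69, 13.02 and 12.91 in wild types, and fell by 2.83 ± 0.61 (limma, adjusted p = 0.000661). Adcy10, the soluble adenylyl cyclase gene, fell by 2.17 ± 0.45 (limma, adjusted p = 0.00045). Ppp3r2 and Adcy10 were lower in both knockouts of litter 2 than in those of litter 1.

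**Figure D2:**
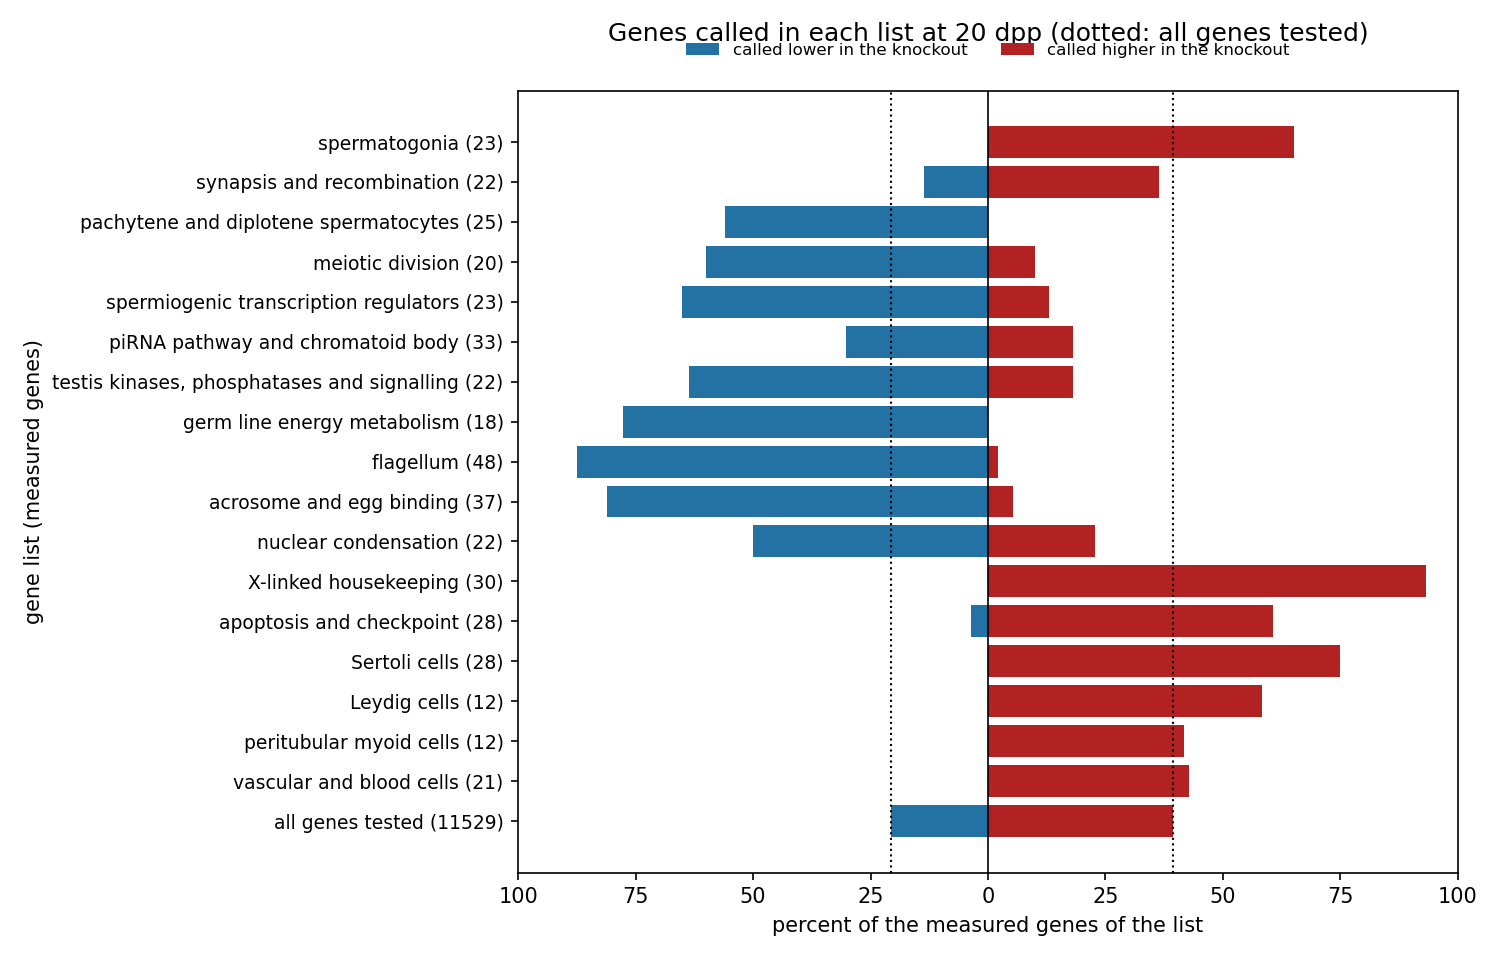
Percent of the measured genes of each list (their number in brackets) that were called lower (bars to the left) or higher (bars to the right) in the knockout at 20 dpp, with dotted lines at the percent of all genes tested, 20.7 lower and 39.4 higher. The bars to the left are longest for the flagellum (42 of 48 genes) and the acrosome (30 of 37), and the bar to the right is longest for X-linked housekeeping genes (28 of 30).

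The piRNA pathway, which protects germ cells from transposons, had members in both directions. Of 33 measured members 10 fell (30.3%), 6 rose (18.2%) and 17 did not pass, while 20.7% of all genes fell and 39.4% rose. Taken relative to the median of all genes 13 were lower and 1 higher, and with the litter 1 knockouts only 7 were lower and 4 higher. The median of -0.14 became 0.032 within the dimmer arrays. Gtsf1l and Gtsf2 belong to the family of the piRNA cofactor GTSF1. Gtsf1l read 4.56, 4.38, 4.81 and 5.27 against 10.62, 10.51 and 11.57 and was at least 42.4-fold lower (limma, adjusted p = 2.42e-11). Gtsf2 read 6.18, 6.74, 7.87 and 8.20 against 11.66, 11.86 and 11.96, with the litter 2 knockouts lowest, and fell by 4.58 ± 0.50 (limma, adjusted p = 1.73e-07).

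Further members with known roles fell by less. Tdrd6, a scaffold gene of the chromatoid body, read 11.01, 11.47, 12.36 and 12.57 against 13.86, 14.14 and 14.09 and fell by 2.18 ± 0.58 (limma, adjusted p = 0.00312), or without a call with the litter 1 knockouts only (limma, adjusted p = 0.0701). Henmt1, the methyltransferase gene that protects piRNA ends, fell by 1.62 ± 0.24 (limma, adjusted p = 1.78e-05), and Ddx25, an RNA helicase gene of spermatids, by 0.87 ± 0.19 (limma, adjusted p = 0.000813). Kif17, a kinesin gene tied to the export of ACT in the mouse, was detected on no knockout array and on 5 wild-type arrays and was at least 1.49-fold lower (limma, adjusted p = 2.78e-05). The germ cell helicase gene Ddx4 overlapped between the groups, with a difference of -0.27 ± 0.25 (limma, adjusted p = 0.367), as did the RNA-binding protein gene Boll, with -0.37 ± 0.23 (limma, adjusted p = 0.168). Boll was called lower relative to the median of all genes (limma, adjusted p = 0.0354) and with array brightness as a block (limma, adjusted p = 0.0391).

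The sex chromosomes stood apart from the autosomes in opposite ways. They are silenced in pachytene spermatocytes and remain largely repressed in spermatids, apart from a set of spermatid-expressed genes. Of 416 tested genes of chromosome X 309 rose (74.3%) and 43 fell (10.3%), with a median change of 0.68, or 0.57 with litter 1 and 0.79 with litter 2. Between 34.2% and 43.6% of genes rose on each autosome, and autosome medians lay between 0.17 and 0.29. Among 30 measured X-linked housekeeping genes 28 rose, 0 fell and 2 did not pass, with a median of 0.76. Relative to the median of all genes 19 of them were higher, and 17 were higher with the litter 1 knockouts only. The shares of all genes were 14.9% and 23.7%.

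X-linked genes of basic metabolism show the size of this rise. Hprt, of purine salvage, read 11.41, 11.62, 11.46 and 11.29 against 10.88, 10.60 and 10.54 and rose by 0.77 ± 0.14 (limma, adjusted p = 9.58e-05). Pgk1, the somatic counterpart of Pgk2, read 9.43, 9.43, 8.46 and 8.58 against 8.05, 7.92 and 8.08 and rose by 0.95 ± 0.23 (limma, adjusted p = 0.0015). The litter 2 knockouts were the higher ones, and with the litter 1 knockouts only the Pgk1 call was lost (limma, adjusted p = 0.0766). Pdha1, the somatic subunit of pyruvate dehydrogenase, rose by 0.64 ± 0.16 (limma, adjusted p = 0.00198), and the ribosomal protein gene Rps4x by 0.82 ± 0.16 (limma, adjusted p = 0.000255). Timp1, a protease inhibitor gene, rose by 1.10 ± 0.19 (limma, adjusted p = 6.89e-05), Cstf2, of RNA 3′ end processing, by 0.81 ± 0.15 (limma, adjusted p = 0.000146) and the deubiquitinase gene Usp9x by 0.67 ± 0.20 (limma, adjusted p = 0.00584).

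A small group of X-linked genes fell by a large factor. Of the 43 lower genes 39 were at least 2-fold lower. Beside Akap4 they included Samt2b, at 4.39 to 4.63 in knockout and 8.02 to 8.60 in wild-type animals, Ssxb5, at 4.44 to 4.63 against 7.90 to 8.22, and Akap14, at 4.43 to 4.52 against 7.45 to 8.33. Samt2b was at least 6.79-fold, Ssxb5 at least 6.15-fold and Akap14 at least 5.16-fold lower (adjusted p by limma of 2.23e-10, 9.12e-11 and 1.59e-10). These 3 genes were named after their values were seen, and members of the Samt and Ssxb families have near copies that a probe may not tell apart.

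Chromosome Y was represented by 13 genes, of which 8 fell and 4 rose. Its spermatid genes fell by large factors, but some kept a signal in the litter 1 knockouts. Gm20815, a Y-linked multi-copy gene, read 7.36 and 9.15 in animals 148 and 152. Ssty1, a multi-copy spermatid gene, read 4.48, 4.66, 4.62 and 4.77 against 9.15, 8.90 and 9.38 and was at least 12.6-fold lower (limma, adjusted p = 1.22e-11). Ssty2 read 4.50, 4.40, 5.54 and 7.12 against 11.34, 11.23 and 11.80 and fell by 6.07 ± 0.43 (limma, adjusted p = 2.19e-10). Sly, known to repress sex chromosome genes in mouse spermatids, read 4.72, 4.82, 4.79 and 5.64 against 8.62, 8.43 and 8.65 and fell by 3.57 ± 0.26 (limma, adjusted p = 3.22e-10). Probes of these families may bind several near-identical copies.

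Other genes of chromosome Y went up. Zfy1, a zinc finger gene, read 6.96, 7.38, 6.64 and 6.37 against 6.06, 5.93 and 5.89 and rose by 0.88 ± 0.17 (limma, adjusted p = 0.000304). Eif2s3y, a translation factor gene needed by spermatogonia, read 9.78, 10.29, 9.06 and 9.15 against 8.93, 8.59 and 8.90. It rose by 0.76 ± 0.23 (limma, adjusted p = 0.00782), a call lost with the litter 1 knockouts only (limma, adjusted p = 0.257) and relative to the median of all genes.

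**Figure D3:**
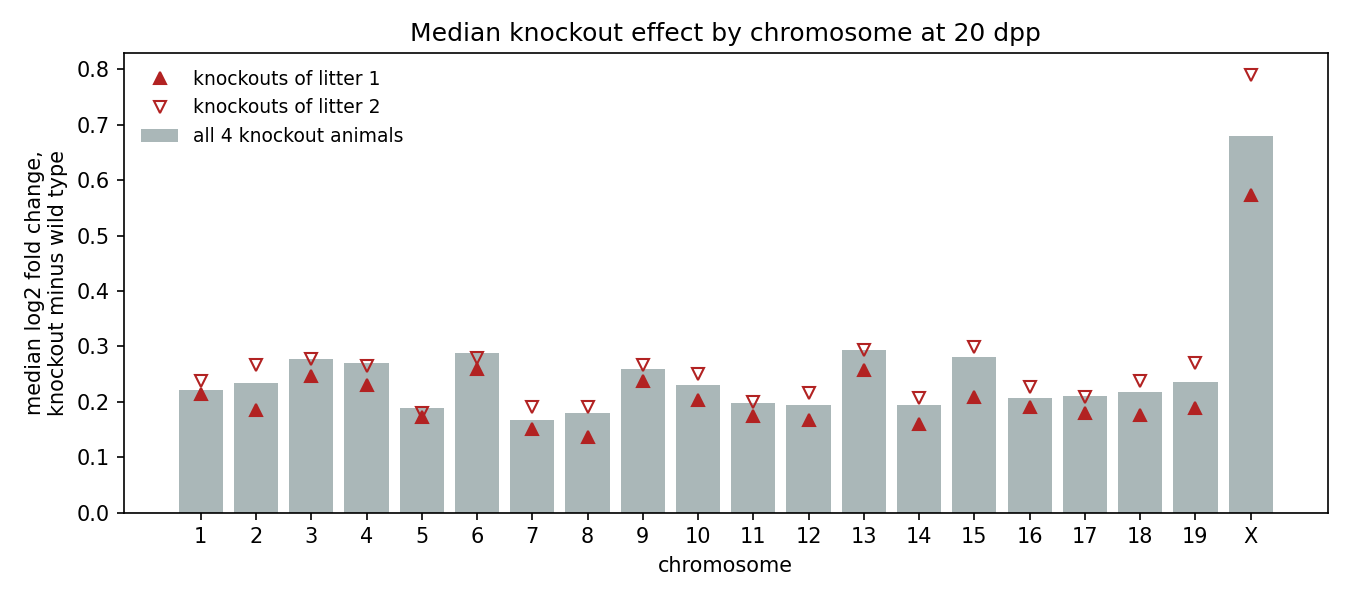
Median log2 fold change of knockout over wild type at 20 dpp (vertical axis) for each autosome and chromosome X, as a bar for all 4 knockout animals and a triangle for the knockouts of each litter. Autosome bars lie between 0.17 and 0.29 and that of chromosome X is at 0.68, with 0.57 for litter 1 and 0.79 for litter 2.

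Spermatogonial genes, which mark the stem and differentiating cells before meiosis, had a median change of 0.56, and of 23 measured members 15 rose, 0 fell and 8 did not pass. Relative to the median of all genes 3 were higher and 1 lower, where 14.9% of all genes were higher. With the litter 1 knockouts only 4 were higher, where 23.7% of all genes were, so that on both counts the list did not exceed the share of all genes. Kit, the receptor of differentiating spermatogonia, read 10.10, 10.02, 10.17 and 10.07 against 9.54, 9.17 and 9.40 and rose by 0.72 ± 0.15 (limma, adjusted p = 0.000615). Sohlh1, a helix-loop-helix factor gene of the same cells, rose by 0.79 ± 0.18 (limma, adjusted p = 0.000798), and Crabp1, a retinoic acid-binding protein gene, by 0.70 ± 0.18 (limma, adjusted p = 0.00224). These genes were higher in every knockout than in every wild type.

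Calls of other spermatogonial genes were lost without the litter 2 knockouts. Stra8, the retinoic acid response gene of meiotic entry, read 8.00, 7.72, 6.10 and 6.46 against 6.02, 5.39 and 6.37, with overlap between the groups. It rose by 1.14 ± 0.37 (limma, adjusted p = 0.0115), and the call was lost without animal 139 or 149 (limma, adjusted p of 0.0549 and 0.081) and with the litter 1 knockouts only (0.35, limma, adjusted p = 0.409). Uchl1, a ubiquitin hydrolase gene, rose by 0.61 ± 0.16 (limma, adjusted p = 0.00338) and Zbtb16, the PLZF gene of undifferentiated spermatogonia, by 0.62 ± 0.19 (limma, adjusted p = 0.0088). Neither was called with the litter 1 knockouts only (limma, adjusted p of 0.136 and 0.0544), with changes of 0.31 for Uchl1 and 0.57 for Zbtb16.

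Sertoli cell genes rose together. Sertoli cells support the germ cells, and 21 of 28 measured markers rose (75%, against 39.4% of all genes). The other 7 did not pass, 0 fell, and the median was 0.59. Relative to the median of all genes 13 were higher, and with the litter 1 knockouts only 16 were higher. The shares of all genes were 14.9% and 23.7%. List means were 9.98, 9.97, 9.74 and 9.68 in knockout and 9.19 to 9.33 in wild-type animals. Inha, the inhibin alpha gene, read 12.25, 12.22, 12.20 and 12.16 against 11.32, 11.27 and 11.41 and rose by 0.88 ± 0.15 (limma, adjusted p = 5.27e-05). Cst9, a cystatin gene, rose by 0.63 ± 0.11 (limma, adjusted p = 7.61e-05), and Gja1, the connexin 43 gene, by 0.73 ± 0.14 (limma, adjusted p = 0.000266). Trf, the transferrin gene, read 8.36, 8.81, 9.01 and 9.04 against 7.72, 7.71 and 7.87 and rose by 1.04 ± 0.21 (limma, adjusted p = 0.000392).

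Receptors and regulators of Sertoli cells moved by similar amounts. Fshr, the receptor of follicle-stimulating hormone, rose by 0.66 ± 0.14 (limma, adjusted p = 0.000494), the transcription factor gene Sox9 by 0.56 ± 0.12 (limma, adjusted p = 0.00075) and the tight junction gene Cldn11 by 0.53 ± 0.12 (limma, adjusted p = 0.000739). The X-linked homeobox gene Rhox5 rose by 1.00 ± 0.21 (limma, adjusted p = 0.000431) and the defensin gene Defb36 by 0.96 ± 0.19 (limma, adjusted p = 0.000281). Amh, the hormone of immature Sertoli cells, was at 6.07 to 6.73 in knockout and 5.52 to 6.20 in wild-type animals. Its call (0.51 ± 0.22, limma, adjusted p = 0.0494) was lost without 139, 140, 146, 148 or 149 (limma, adjusted p of 0.156, 0.075, 0.0954, 0.0618 and 0.244).

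Of 12 Leydig cell genes 7 rose (58.3%, against 39.4% of all genes) and 5 did not pass (median 0.60). The number that rose was 4 without animal 140 and 3 without 149. Taken relative to the median of all genes 3 were higher, and 2 with the litter 1 knockouts only. The shares of all genes were 14.9% and 23.7%, so the litter 1 count did not exceed the share of all genes. Cyp11a1, the enzyme gene that starts steroid synthesis, read 8.61, 8.79, 8.13 and 8.62 against 7.14, 7.41 and 8.05 and rose by 1.00 ± 0.30 (limma, adjusted p = 0.00717). Fads1, a fatty acid desaturase gene, rose by 0.82 ± 0.16 (limma, adjusted p = 0.000279), and Hsd11b1, a glucocorticoid-converting enzyme gene, by 0.67 ± 0.17 (limma, adjusted p = 0.00242). Insl3, a peptide hormone gene of Leydig cells, rose by 0.58 ± 0.20 (limma, adjusted p = 0.0156), a call lost without 140 or 149 (limma, adjusted p of 0.051 and 0.0991). With the litter 1 knockouts only, Cyp11a1 and Insl3 did not pass (limma, adjusted p of 0.0744 and 0.124). Cyp17a1, of androgen synthesis, overlapped between the groups at 11.57, 12.46, 12.60 and 12.61 against 11.24, 10.72 and 12.14, a difference of 0.94 ± 0.44 (limma, adjusted p = 0.0665) that was called without animal 139 or 157 (limma, adjusted p of 0.0331 and 0.0265). Star, which brings cholesterol into mitochondria, also overlapped (0.58 ± 0.31, limma, adjusted p = 0.101). Star was called higher in a fit of both groups alone (limma, adjusted p = 0.045) and with array brightness as a block (limma, adjusted p = 0.0346).

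Of 12 peritubular myoid genes 5 rose and 7 did not pass (median 0.51), and 2 rose without animal 139 or 149 and 3 without 148 or 157. This share is close to the 39.4% of all genes, and 1 was higher relative to the median of all genes and 2 with the litter 1 knockouts only. The smooth muscle genes Acta2 (0.35 ± 0.15) and Myh11 (0.58 ± 0.31) did not pass (limma, adjusted p of 0.0519 and 0.112), although each knockout was above each wild type. Both were called with litter as a block (limma, adjusted p of 0.00669 for Acta2 and 0.0363 for Myh11), in a fit of both groups alone (limma, adjusted p of 0.00854 and 0.0108) and with array brightness as a block (limma, adjusted p of 0.00224 and 0.00865), and Acta2 also with the replicate block (limma, adjusted p = 0.0112). Myl9, a myosin light chain gene, rose by 0.63 ± 0.16 (limma, adjusted p = 0.00202) and the tropomyosin gene Tpm1 by 0.70 ± 0.20 (limma, adjusted p = 0.00468). Mylk, the kinase gene of that light chain, rose by 0.48 ± 0.19 (limma, adjusted p = 0.0363) and Smtn, a smooth muscle actin-binding gene, by 0.66 ± 0.24 (limma, adjusted p = 0.0219). The Mylk call was lost without 139, 148, 149, 152 or 157 (limma, adjusted p of 0.0502, 0.085, 0.0826, 0.0537 and 0.155), and that of Smtn without 139 or 149 (limma, adjusted p of 0.0567 and 0.0704). Tagln, another smooth muscle gene, was near 0 in difference (-0.01 ± 0.28, limma, adjusted p = 0.975).

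In the list of vascular and blood cell genes 9 of 21 rose, 0 fell and 12 did not pass (median 0.41), a share close to the 39.4% of all genes. Taken relative to the median 7 were higher, and 8 with the litter 1 knockouts only. The 4 members with the smallest adjusted p, named here, are expressed by macrophages. C1qb, of complement, read 9.96, 9.28, 9.40 and 9.73 against 8.77, 8.34 and 8.57 and rose by 1.03 ± 0.21 (limma, adjusted p = 0.000432), and C1qc rose by 0.95 ± 0.21 (limma, adjusted p = 0.000771). Csf1r, the receptor of a macrophage growth factor, rose by 0.82 ± 0.19 (limma, adjusted p = 0.00133), and Mrc1, the macrophage mannose receptor gene, by 0.61 ± 0.14 (limma, adjusted p = 0.00133). The endothelial gene Pecam1 overlapped (0.20 ± 0.26, limma, adjusted p = 0.521). Hba-a1, a haemoglobin gene of red blood cells, read 12.83, 12.41, 14.64 and 14.25 against 14.74, 13.27 and 14.52, a difference of -0.64 ± 0.47 (limma, adjusted p = 0.243), and was lowest in the knockouts of litter 2.

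Other tissues were little represented. Of 5 measured epididymis genes 1 rose: Eppin, a protease inhibitor gene that is also made in the testis, rose by 0.69 ± 0.17 (limma, adjusted p = 0.00193). Among them, the epididymal gene Lcn5 did not reach the detection limit for a test. Of 13 immediate early genes, which respond to stress and handling, 5 rose, 1 fell and 7 did not pass (median 0.36), and the number that rose was 2 without 139, 149 or 157. The share that rose, 38.5%, was close to the 39.4% of all genes. Klf6, Egr2 and Zfp36 were called higher, and each call was lost in some settings. That of Klf6 was lost with litter as a block (limma, adjusted p = 0.183). That of Egr2 was lost within the brighter arrays (limma, adjusted p = 0.0659), and that of Zfp36 relative to the median of all genes (limma, adjusted p = 0.199). Egr1 overlapped between the groups (0.23 ± 0.42, limma, adjusted p = 0.647), as did Fos (0.34 ± 0.41, limma, adjusted p = 0.49) and Jun (0.34 ± 0.22, limma, adjusted p = 0.179). With array brightness as a block Jun was called higher (limma, adjusted p = 0.0436). Klf4, a zinc finger factor gene that spermatids also express, read 7.33, 6.68, 6.54 and 6.53 against 7.34, 7.74 and 7.99 and fell by 0.92 ± 0.26 (limma, adjusted p = 0.00453). The part of cell composition in the rise of somatic, X-linked and spermatogonial genes was not tested.

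Apoptosis and checkpoint genes rose in number but by little. Of 28 measured members 17 rose (60.7%, against 39.4% of all genes), 1 fell and 10 did not pass, with a median of 0.49. Relative to the median of all genes 6 were higher and 2 lower, and with the litter 1 knockouts only 12 were higher. Atm, the kinase gene that senses double-strand breaks, read 10.63, 10.46, 10.08 and 9.90 against 9.56, 9.14 and 9.29 and rose by 0.94 ± 0.16 (limma, adjusted p = 9.59e-05). Bcl2l11, the gene of the death-promoting protein BIM, rose by 0.75 ± 0.14 (limma, adjusted p = 0.000219), Apaf1, of the apoptosome, by 0.66 ± 0.15 (limma, adjusted p = 0.00106), Casp2, a caspase gene, by 0.55 ± 0.12 (limma, adjusted p = 0.000694) and the survival gene Bcl2l2 by 0.60 ± 0.14 (limma, adjusted p = 0.00142). The p53 targets differed: Cdkn1a rose by 0.49 ± 0.18 (limma, adjusted p = 0.0246), a call lost without 148, 149 or 157 (limma, adjusted p of 0.052, 0.127 and 0.0573), and Mdm2 was at 12.34 to 12.54 in all animals, a difference of 0.01 ± 0.10 (limma, adjusted p = 0.967). Chek2, a checkpoint kinase gene, rose by 0.49 ± 0.15 (limma, adjusted p = 0.00937), though not with the litter 1 knockouts only (limma, adjusted p = 0.154).

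The largest increases were small beside the decreases. Rdm1, a RAD52 motif gene, read 9.86, 9.63, 9.76 and 9.70 against 7.98, 8.05 and 7.95 and rose by 1.74 ± 0.12 (limma, adjusted p = 2.23e-10), with both litters at the same level. Replication-type histone H4 genes were also among the 10 largest increases. H4c18 read 8.58, 8.70, 8.64 and 8.34 against 6.87, 7.01 and 6.80 and rose by 1.67 ± 0.17 (limma, adjusted p = 1.01e-07), and H4c17, H4c6 and H4c9 rose by 1.57, 1.47 and 1.35 (limma, adjusted p of 4.69e-08, 4.58e-08 and 6.6e-06). H4 genes are near-identical, so these probes may read the same transcripts. Not every H4 gene rose. H4c2, named after its values were seen, read 4.74, 4.77, 5.87 and 6.17 against 7.09, 7.85 and 7.62. Its change was -2.13 ± 0.31 (limma, adjusted p = 1.02e-05).

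Among genes ranked 11 to 20 by size of increase, 5 were X-linked: H2bfm, Magea2, Magea6, Tex16 and Magea5. H2bfm, a histone H2B variant gene, read 7.57, 7.48, 7.70 and 7.48 against 6.31, 6.24 and 6.23 and rose by 1.30 ± 0.13 (limma, adjusted p = 3.06e-08). Magea2, Magea5 and Magea6, of a germ cell antigen family with near-identical copies, rose by 1.22, 1.18 and 1.19 (limma, adjusted p of 4.09e-06, 6.38e-06 and 2.44e-05), and Tex16 by 1.19 (limma, adjusted p = 2.54e-05). The other 5 were Pbld2 (1.28 ± 0.23), the alcohol dehydrogenase gene Adh1 (1.26 ± 0.35), the integrin gene Itga11 (1.24 ± 0.17), Ube2cbp (1.22 ± 0.15) and the small GTPase gene Rerg (1.20 ± 0.19), with limma adjusted p of 0.00012, 0.0046, 3.79e-06, 1.07e-06 and 2.72e-05. Adh1 was not called with the litter 1 knockouts only (limma, adjusted p = 0.0938).

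Among genes ranked 11 to 20 by size of decrease several are spermatid genes outside the passages above. Gsg1, a germ cell gene whose protein binds a testis poly(A) polymerase, read 4.64, 5.04, 5.70 and 5.90 against 10.83, 10.96 and 11.77 and fell by 5.87 ± 0.41 (limma, adjusted p = 1.72e-10). Nt5c1b, a cytosolic nucleotidase gene, was at least 33.1-fold lower (limma, adjusted p = 1.39e-11), Gm6583 at least 24.8-fold (limma, adjusted p = 1.54e-12) and Kif2b, a microtubule-depolymerising kinesin gene, at least 24.6-fold (limma, adjusted p = 1.44e-10). A930018P22Rik read 5.83, 5.82, 5.48 and 6.08 against 10.98, 11.40 and 11.58 and fell by 5.52 ± 0.36 (limma, adjusted p = 6.09e-11). In each, all knockouts lay at least 4 log2 units below all wild types.

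The same genotype was read at 17 dpp against heterozygous mice. The knockout effect differed between the ages for 2687 genes, with 1263 (11%) more negative at 20 dpp and 1424 (12.4%) more positive. The count was 1756, 1463 and 1302 without animal 139, 149 or 157, and 1015 with the litter 1 knockouts only. Which direction held more genes was not stable. More negative effects were the majority without background correction (1369 against 1255), without animal 157 (881 against 421) and with the litter 1 knockouts only (749 against 266). With median scaling they were the minority (1164 against 1779). These controls differ in genotype as well as age, heterozygous at 17 dpp and wild type at 20 dpp. Of the 131 genes called lower at 17 dpp (1.14% of all), 90 were also at least 2-fold lower at 20 dpp (0.781% of all genes). These 90 were 7.17% of the 1255 genes that were at least 2-fold lower at 20 dpp.

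The lists differed in which age carried the effect. More negative effects at 20 dpp were found for 11% of all genes. They were found for 23 of 37 acrosome genes, 21 of 48 flagellum genes, 8 of 22 genes of nuclear condensation and 7 of 20 of meiotic division. Members near background at 17 dpp could not show a decrease at that age, so these counts are partly set in advance. The count for pachytene genes, 2 of 25, was near the share of all genes. Acrv1 was near background in both groups at 17 dpp, with means of 4.52 in knockouts and 4.46 in heterozygotes, so that a decrease could not be seen at that age. Ccna1 had a change of -0.43 at 17 dpp and a difference of -4.60 ± 0.42 (limma, adjusted p = 4.49e-08). Its means at 17 dpp were also low, at 4.71 in knockouts and 5.14 in heterozygotes, so little decrease could be seen at that age. More positive effects at 20 dpp were found for 12.4% of all genes. They were found for 16 of 30 X-linked housekeeping genes, 8 of 28 Sertoli cell genes and 7 of 22 synapsis genes, Sycp1 among them (1.09 ± 0.27, limma, adjusted p = 0.00622).

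Some genes of earlier stages had no called difference between the ages, within wide errors. In the synapsis list, by contrast, 7 of 22 effects were more positive at 20 dpp and 1 was more negative. Adam3 changed by -3.39 at 17 dpp and -2.94 at 20 dpp, a difference of 0.45 ± 0.88 (limma, adjusted p = 0.717). Tdrd6 changed by -2.14 and -2.18 (difference -0.04 ± 0.76, limma, adjusted p = 0.974), Ppp3r2 by -2.75 and -2.83 (difference -0.08 ± 0.80, limma, adjusted p = 0.946) and Spag16 by -1.87 and -2.15 (difference -0.28 ± 0.63, limma, adjusted p = 0.756). The differences for Pgk2 (-1.18 ± 0.82), Acr (-1.04 ± 0.60) and Brdt (-0.80 ± 0.39) also missed the threshold (limma, adjusted p of 0.279, 0.193 and 0.131). With errors of this size a difference of over 1 log2 unit could be missed.

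The 1255 genes that were at least 2-fold lower differed in whether they were already detected at 17 dpp. Of these, 405 (32.3%) were detected on no heterozygous array at 17 dpp, against 658 (5.71%) of all tested genes. Genes of this kind passed the detection filter only through another group, so their high share of decreases is partly set by that filter. Their median log2 signal was 4.72 in the knockout at 20 dpp, 7.17 in wild types at 20 dpp and 4.66 in heterozygotes at 17 dpp, and 318 of them (78.5%) were detected on no knockout array. Another 618 (49.2%) were detected on all 6 heterozygous arrays at 17 dpp, with medians of 8.66 in the knockout, 10.3 in wild types and 8.38 in the heterozygotes. The median change of the former was -2.21 with litter 1 and -2.41 with litter 2, and that of the latter -1.18 and -1.72. The remaining 232 (18.5%) were detected on 1 to 5 of those arrays.

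**Figure D4:**
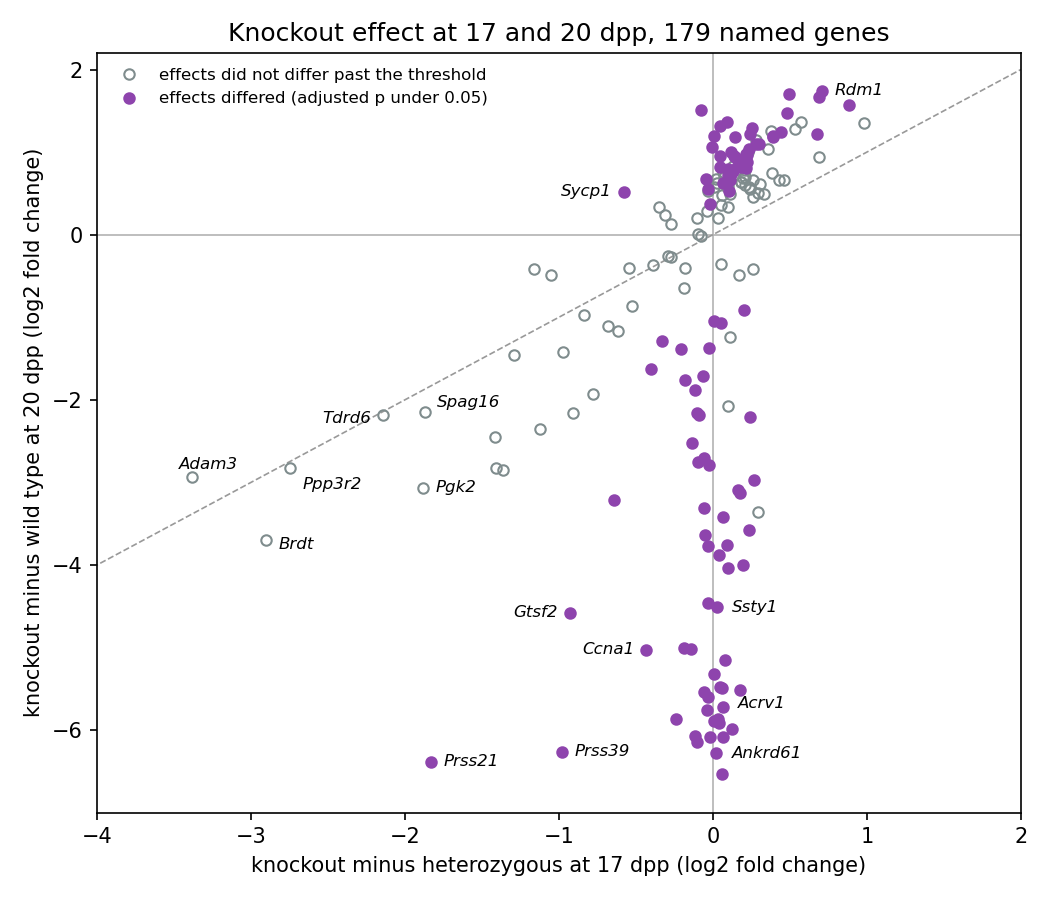
Fitted log2 fold change of the knockout at 17 dpp against heterozygous mice (horizontal axis) and at 20 dpp against wild types (vertical axis) for 179 named genes, with filled points where the effects differed (limma, adjusted p under 0.05) and a dashed line where they are equal; fitted values of genes with no detected knockout array have only a bound. Adam3, Tdrd6 and Ppp3r2 lie near the dashed line, while Ccna1 is at -0.43 at 17 dpp and -5.03 at 20 dpp. Ccna1 averaged only 5.14 in heterozygotes at 17 dpp, where little decrease could be seen.

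The deletion of the first bromodomain, read against its own controls at the same age, gave a smaller response. In it 738 genes were called lower (6.4%), of which 721 (6.25% of all genes) were also called lower in the knockout and 595 (5.16% of all genes) were at least 2-fold lower there. The effects of both alleles differed past the threshold for 144 genes, 126 more positive (1.09%) and 18 more negative (0.156%) in the deletion. The count was 65, 63, 35 and 40 without animal 139, 140, 149 or 157, and 20 with the litter 1 knockouts only. Prss39 and Prss21, testis serine protease genes, had the greatest differences among the genes named here. Prss39 read 4.76, 4.99, 5.60 and 6.12 in knockout and 11.37, 11.74 and 11.77 in wild-type animals, a change of -6.26, against -1.45 in the deletion (difference 4.81, limma, adjusted p = 0.000166). Prss21 changed by -6.39 and -1.71 (difference 4.68, limma, adjusted p = 0.00261), and Ccna1 by -5.03 and -1.38 (difference 3.65 ± 0.46, limma, adjusted p = 0.000133). Pou5f2 (-2.83 and -0.38, difference 2.44, limma, adjusted p = 0.0382), Gtsf2 (-4.58 and -1.49, difference 3.09, limma, adjusted p = 0.0284) and Henmt1 (-1.62 and -0.02, difference 1.60, limma, adjusted p = 0.0227) were also less negative in the deletion.

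Among higher genes the responses differed for a few. Rdm1 rose by 1.74 in the knockout and by 1.01 in the deletion (difference -0.74, limma, adjusted p = 0.0389). Meiob changed by 0.79 and 0.01 (difference -0.78, limma, adjusted p = 0.0425) and H2bfm by 1.30 and 0.24 (difference -1.06, limma, adjusted p = 0.0035).

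Several spermatid genes were near background in both mutants, where the size of the effects cannot be compared. Acrv1 averaged 4.58 in the knockout and 4.70 in the deletion, against 10.3 in wild types and 9.36 in the deletion's controls. Spaca3, Hils1 and Akap4 averaged 4.49, 4.61 and 4.72 in the knockout and 4.65, 4.63 and 4.66 in the deletion. Odf1, which some knockout arrays detected, changed by -4.34 in the deletion (difference 1.26 ± 0.53, limma, adjusted p = 0.27). The error of Pgk2 (difference 2.34 ± 0.89, limma, adjusted p = 0.231) leaves room for a difference that was not detectable with these arrays. The deletion was called lower for 22 of 37 acrosome genes, 16 of 48 flagellum genes and 7 of 22 genes of nuclear condensation, against 6.4% of all genes.

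The knockout animals of both litters were also compared. Against the 3 wild types 4526 genes (39.3%) were called with the litter 1 knockouts and 6771 (58.7%) with those of litter 2. Both comparisons share the wild-type animals, which are littermates of the former only. Litter also went in part with array brightness. The raw 75th percentile was 307 and 319.5 on the litter 2 arrays, and 237.9, 221.5, 229.1 and 321.2 on those of litter 1. The last of these, from animal 152, was as bright as the litter 2 arrays. Litter and array brightness therefore cannot be fully told apart in the following differences. Compared directly, 13 genes (0.113%) were higher and 4 (0.0347%) lower in litter 2 than in litter 1 (limma), and 1745 (15.1%) had an unadjusted p under 0.05. With 2 animals a litter this count is unstable: it was 1 to 5 when any of the 7 animals was left out, and 586 with median scaling. The Y-linked multi-copy gene Gm20815 read 4.43 and 4.59 in litter 2 and 7.36 and 9.15 in litter 1, a difference of -3.75 (limma, adjusted p = 0.000755), and 12.79 to 13.13 in wild types. Its relative Gm20867 was also lower, at 4.41 and 4.51 against 5.71 and 7.04 (limma, adjusted p = 0.0474). Genes that were higher in litter 2, named after their values were seen, include the mitochondrial gene COX2, at 12.74 and 12.74 against 11.68 and 11.92, and Cul1, a ubiquitin ligase gene, at 10.84 and 10.87 against 9.90 and 10.15 (both limma, adjusted p = 0.0458). For COX2 the litter 1 knockouts lay near the wild types, which were at 11.51 to 11.76.

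Testis weight was lower in the knockout without passing a test. The testes weighed 18, 21.2, 21.3 and 21.5 mg in knockout and 22.6, 22 and 23.8 mg in wild-type animals, with no overlap. The means were 20.5 ± 1.67 mg (SD, n = 4) and 22.8 ± 0.917 mg (n = 3), a difference of -2.3 mg (exact two-sided permutation test, p = 0.0571, the smallest that 35 splits allow). Within litter 1 the difference was -1.4 mg (exact p = 0.2, the smallest that 10 splits allow).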

How the data were processed

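Total RNA of juvenile mouse testis was read on Illumina bead arrays. Per the file headers and the labels, the authors deposited, for each array, a linear intensity per probe that was not normalized between arrays and a detection p-value. GenomeStudio 2011.1 is named in the submitters' processing notes. A processed matrix of linear intensity, also deposited by the authors, was used as an alternative only.

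Intensities were background-corrected, quantile-normalized and taken to log2 with neqc (offset 16), and arrays of 1 animal were averaged. These log2 values were computed here from the deposited intensities. Probes with a detection p under 0.01 on every array of at least 3 animals were kept (21190 of 45281), and a gene was represented by its kept probe with the highest mean (11529 genes). Of all probes 34885 had 1 gene symbol, 18 several and 10378 none. Symbols were updated by Entrez number through RefSeq GRCm38.p6 for 34807. Of 4386 genes with several kept probes, 100 had probes called in opposite directions. limma 3.58.1 (R 4.3.3) fitted 24 animals in 6 groups with an intensity trend, and calls were made at a Benjamini-Hochberg adjusted p under 0.05 over all genes. Differences between effects were contrasts of the same fit. The fit was tested on simulated data.

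Where every array of the lower group missed a gene, it has a lower limit of its fold, which sets the mean of the higher group against, per array, the higher of the lowest well-detected signal and the probe's own. Gene lists held 597 genes, of which 432 were measured. The members and lists were chosen with earlier results of these data known. The genes named are Brdt and its relatives, the measured key members of each list, at most 4 called genes per list, taken in order of adjusted p, and called genes ranked 11 to 20 by size in each direction whose groups do not overlap (ranks 1 to 10 where something is added). Exceptions are stated. Replicate numbers of the labels count arrays within a group and do not pair animals. Alternatives changed the background correction, scaling, filter, probe choice, animals, litters, repeat arrays and array brightness.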

Additional observations from a re-analysis of the deposited data

Results flagged for a closer look

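In 6 of 179 named genes 1 knockout animal stood apart from the other 3 by more than chance allows in about 19 of 20 groups, and chance flags about 1 in 20 groups. Animal 140 stood apart for Bcl2l2, at 11.2 against 11.06 to 11.08, for Nt5c1b, at 4.46 against 4.71 to 4.73, and for Spaca7, at 4.72 against 4.46 to 4.50. Cyp17a1 was at 11.57 in animal 139 and at 12.46 to 12.61 in the others. Sly was at 5.64 in animal 152 and at 4.72 to 4.82 in the others, and Syce3 at 12.97 in animal 148 and 12.81 to 12.84 in the others. The knockout levels of Nt5c1b and Spaca7 lie at the detection limit.

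The knockout effect differed between 20 and 17 dpp for 2687 genes. The greatest fitted differences among the genes named by the rule were those of Gm20815 (-6.59, limma, adjusted p = 1.48e-05), Ankrd61 (-6.30, limma, adjusted p = 8.2e-10), Gm20867 (-6.16, limma, adjusted p = 2.76e-08), Znrf4 (-6.11, limma, adjusted p = 3.62e-09) and Spata45 (-6.07, limma, adjusted p = 8.2e-10). Ankrd61, Znrf4 and Spata45 were detected on no knockout array at 20 dpp, so their fitted differences are no measure of size. Gm20815 and Gm20867 averaged 4.52 and 4.57 in heterozygotes at 17 dpp, near background, where a decrease could not be seen. For 144 genes the knockout and the BD1 deletion had different effects. Prss39 (4.81, limma, adjusted p = 0.000166), Prss21 (4.68, limma, adjusted p = 0.00261), Ccna1 (3.65, limma, adjusted p = 0.000133), Gtsf2 (3.09, limma, adjusted p = 0.0284) and A930018P22Rik (2.92, limma, adjusted p = 0.00438) were the furthest apart among the genes named by the rule, all less negative in the deletion.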

How the results depend on the processing

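No call of a named gene reversed under any alternative run, but the majority direction of the differences between ages did in some. The log2 fold change of Brdt lay between -3.95 and -3.00, and between -3.86 and -3.50 with 1 animal left out. The 6927 genes called between knockout and wild type became 4406 with the litter 1 knockouts only, 4357 within the dimmer arrays, which hold the same 2 knockout animals, 6595 within the brighter arrays, and 5563 to 6845 with 1 animal left out. With the labels' replicate block over arrays they were 7104 (Brdt -3.62). The 2687 genes that differed between 20 and 17 dpp became 1015 with the litter 1 knockouts only and 1302 to 2871 with 1 animal left out. The 144 genes that differed between the alleles became 95 without background correction, 95 with the authors' matrix, 20 with the litter 1 knockouts only and 35 to 170 with 1 animal left out. The 17 genes that differed between knockout litters became 9 without background correction, 9 with the authors' matrix, 586 with median scaling, 6 with no filter, 3 with the mean over probes, 3 without an intensity trend and 1 to 5 with 1 animal left out. The cause of these changes was not tested. Among the named genes calls were lost for 28 within the dimmer arrays, 26 with the litter 1 knockouts only and 19 relative to the median of all genes. Levels near the detection limit have no order, and the number of arrays limits what small changes can be seen.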
